A study of Mus musculus with 49 samples.

Results

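Small nucleolar RNA genes were examined in RNA-seq libraries of white fat from the mouse strains C57BL/6 and 129S1/SvImJ. They were taken by symbol, Snora followed by a number for the H/ACA class and Snord followed by a number for the C/D class. Of 22869 gene symbols, 105 met this rule, 36 H/ACA and 69 C/D. The 40 genes described here, 25 H/ACA and 15 C/D, had a normalized value of at least 20 in at least 1 library, and the other 65 stayed under 20. The genes were thus chosen by their highest normalized value over all libraries, so their levels are a description with no test, and counts over them are set beside the share of all genes called by the same rule. A gene that reached 20 only in the group where it was high was selected towards a difference, so these counts describe the genes and support nothing further.

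The 43 libraries form 10 groups, and every group is from 1 of the 2 strains. Epididymal white adipose tissue (eWAT) of chow-fed mice gave 5 libraries a strain, with no age given in the labels. The drug experiment gave eWAT of mice on a low fat control diet that began at 6 weeks of age and, from week 16 until week 18, was either kept (4 libraries a strain) or supplemented with 36 mg/kg of rosiglitazone, an agonist of the nuclear receptor PPARG, for those final 2 weeks (4 libraries a strain). A further set came from mice on low fat diet for 12 weeks, with 5 C57BL/6 and 4 129S1/SvImJ libraries of eWAT and 4 libraries a strain of inguinal white adipose tissue (iWAT). F1 mice (5 samples) and 1 nascent RNA sample were not analysed here. Whether the libraries of a group came from separate mice is not stated in the labels, and the p-values below reflect only how far these libraries scatter. Library numbers run in blocks by group, for example 1 to 5 for C57BL/6 eWAT and 34 to 37 for 129S1/SvImJ eWAT after 12 weeks of diet, so strain or depot and the library series cannot be told apart.

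Small nucleolar RNAs are stable nuclear RNAs that pair with ribosomal RNA precursors and guide chemical changes at single nucleotides. C/D RNAs, named for their C and D box motifs, guide 2′-O-methylation by fibrillarin. H/ACA RNAs, which have an internal hinge and an ACA box near their end, guide pseudouridylation by dyskerin. In mammals most are cut from introns of host genes, many of which encode ribosomal proteins or are noncoding transcripts such as Gas5 and the Snhg genes. They carry no poly(A) tail, while the labels give the library molecule as mRNA. Adipocytes, like other cells, need them for ribosome production.

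The sequences below are examples: the 4 C/D genes that carry nearly all of the C/D signal, and 6 H/ACA genes with high levels or small p in a strain comparison. Snora74a, the most abundant H/ACA gene, is not among those shown. They are from GENCODE M21 on GRCm38, 5′ to 3′, in lower case, with the C box (TGATGA in the first 20 bases), the D box (CTGA in the last 15) or the ACA box (3 bases before the 3′ end) in capitals. Snord22 has no TGATGA in that window, and Snora81 has no ACA at that distance.
Snord17: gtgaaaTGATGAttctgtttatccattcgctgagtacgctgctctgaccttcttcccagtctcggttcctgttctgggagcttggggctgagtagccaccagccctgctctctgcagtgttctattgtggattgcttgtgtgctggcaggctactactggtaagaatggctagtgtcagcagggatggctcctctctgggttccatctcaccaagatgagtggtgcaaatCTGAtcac
Snord15b: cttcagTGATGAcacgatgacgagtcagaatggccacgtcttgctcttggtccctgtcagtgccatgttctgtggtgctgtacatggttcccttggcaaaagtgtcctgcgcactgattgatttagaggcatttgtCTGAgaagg
Snord15a: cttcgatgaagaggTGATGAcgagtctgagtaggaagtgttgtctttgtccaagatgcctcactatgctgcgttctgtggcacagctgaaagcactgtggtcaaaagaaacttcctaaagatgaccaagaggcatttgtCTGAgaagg
Snord22: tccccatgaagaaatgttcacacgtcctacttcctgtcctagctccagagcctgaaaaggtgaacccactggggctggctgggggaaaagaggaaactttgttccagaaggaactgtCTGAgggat
Snora81: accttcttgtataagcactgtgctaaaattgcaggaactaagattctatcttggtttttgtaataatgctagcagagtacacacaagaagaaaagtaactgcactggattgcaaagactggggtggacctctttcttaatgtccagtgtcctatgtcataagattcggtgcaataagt
Snora23: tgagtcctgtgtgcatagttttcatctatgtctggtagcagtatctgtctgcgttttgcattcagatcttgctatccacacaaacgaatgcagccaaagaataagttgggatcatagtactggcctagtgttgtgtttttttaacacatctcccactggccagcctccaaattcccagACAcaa
Snora15: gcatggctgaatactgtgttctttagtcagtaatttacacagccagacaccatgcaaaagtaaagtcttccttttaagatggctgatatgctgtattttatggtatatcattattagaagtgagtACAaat
Snora26: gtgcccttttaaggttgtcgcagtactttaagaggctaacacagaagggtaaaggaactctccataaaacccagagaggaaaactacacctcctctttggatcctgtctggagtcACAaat
Snora64: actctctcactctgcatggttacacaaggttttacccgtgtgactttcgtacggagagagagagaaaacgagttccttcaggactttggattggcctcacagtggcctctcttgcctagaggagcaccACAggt
Snora21: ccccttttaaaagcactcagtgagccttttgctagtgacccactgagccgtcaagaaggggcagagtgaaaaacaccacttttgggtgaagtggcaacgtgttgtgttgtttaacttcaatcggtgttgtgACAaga
Snord17 lies at chr2:144265979-144266216 on the minus strand, in an intron of the sorting nexin gene Snx5. Snord15b (chr7:99479563-99479707, minus strand, overlapping an annotated exon) and Snord15a (chr7:99482785-99482932, minus strand, intronic) both lie in the ribosomal protein gene Rps3, and 107 of their 162 aligned positions (66%) were identical. Snord22 (chr19:8725866-8725991, plus strand) overlaps an exon of the noncoding Snhg1. Snora81 (chr16:23110756-23110933, plus strand) overlaps an exon of the helicase gene Eif4a2, and Snora23 (chr7:110046364-110046547, plus strand) is in an intron of the importin gene Ipo7, with 1600010M07Rik annotated on the other strand. Snora15 (chr5:129794546-129794676, plus strand) overlaps an exon of the chaperonin gene Cct6a, and Snora26 (chr5:74093530-74093650, plus strand) an exon of the noncoding Dancr, listed in the tables as 2700023E23Rik. Snora64 (chr17:24720772-24720905, plus strand) overlaps an exon of Rps2, and Snora21 (chr11:97781639-97781775, minus strand) is in an intron of Rpl23.

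Among the 25 H/ACA genes, 20 (80%) had ACA at that distance from the end, against 83.3% of 42 GENCODE Snora transcripts and 0% of 98 Snord transcripts. Among the 15 C/D genes, 10 (66.7%) had TGATGA in the window and 15 (100%) had CTGA, against 71.4% and 93.9% of the 98 Snord transcripts. Over all 1507 GENCODE snoRNA transcripts the shares were 18.3% for ACA, 21.7% for TGATGA and 31.4% for CTGA, read on the transcript's own strand only, and a match is a description of letters. All 40 genes matched an annotated transcript, 37 of them inside a host gene on the same strand. Of these, 14 were wholly intronic and 23 overlapped an annotated exon of the host, so reads of the host and of the small RNA cannot be told apart for the latter. For 14 of the 40, another GENCODE snoRNA transcript was at least 90% identical, and reads of such copies may have been split or shared. The library kit does not mark strand, so reads of a gene and an antisense partner cannot be told apart.

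Values were whole numbers with a floor of 1 that the authors had normalized, so the depth of a library is unknown and library totals (5537632 to 7526303) are sums of normalized values. White adipocyte markers were high and off the floor in every group, but 129S1/SvImJ chow replicate 2 stood apart, with a summed adipocyte marker value of 24694 against 124308 or more elsewhere and 212188 for the epididymis markers (34012 in 129S1/SvImJ chow replicate 1 and at most 140 in every other library). Skeletal muscle markers summed to 10340 in C57BL/6 eWAT replicate 3 after 12 weeks of diet, against 163 to 503 in the other libraries of its group. Lymphocyte markers summed to 1742 in C57BL/6 iWAT replicate 4, and to 3634 and 1247 in 129S1/SvImJ iWAT replicates 1 and 4, against 17 to 104 in the other iWAT libraries. The 4 C57BL/6 iWAT libraries were coarse, with 467 to 679 distinct values, 32.1 to 37.7% of transcripts at the floor (15.2 to 27.2% elsewhere) and a lowest value above the floor of 5 to 11 (2 to 4 elsewhere).

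**Figure D1:**
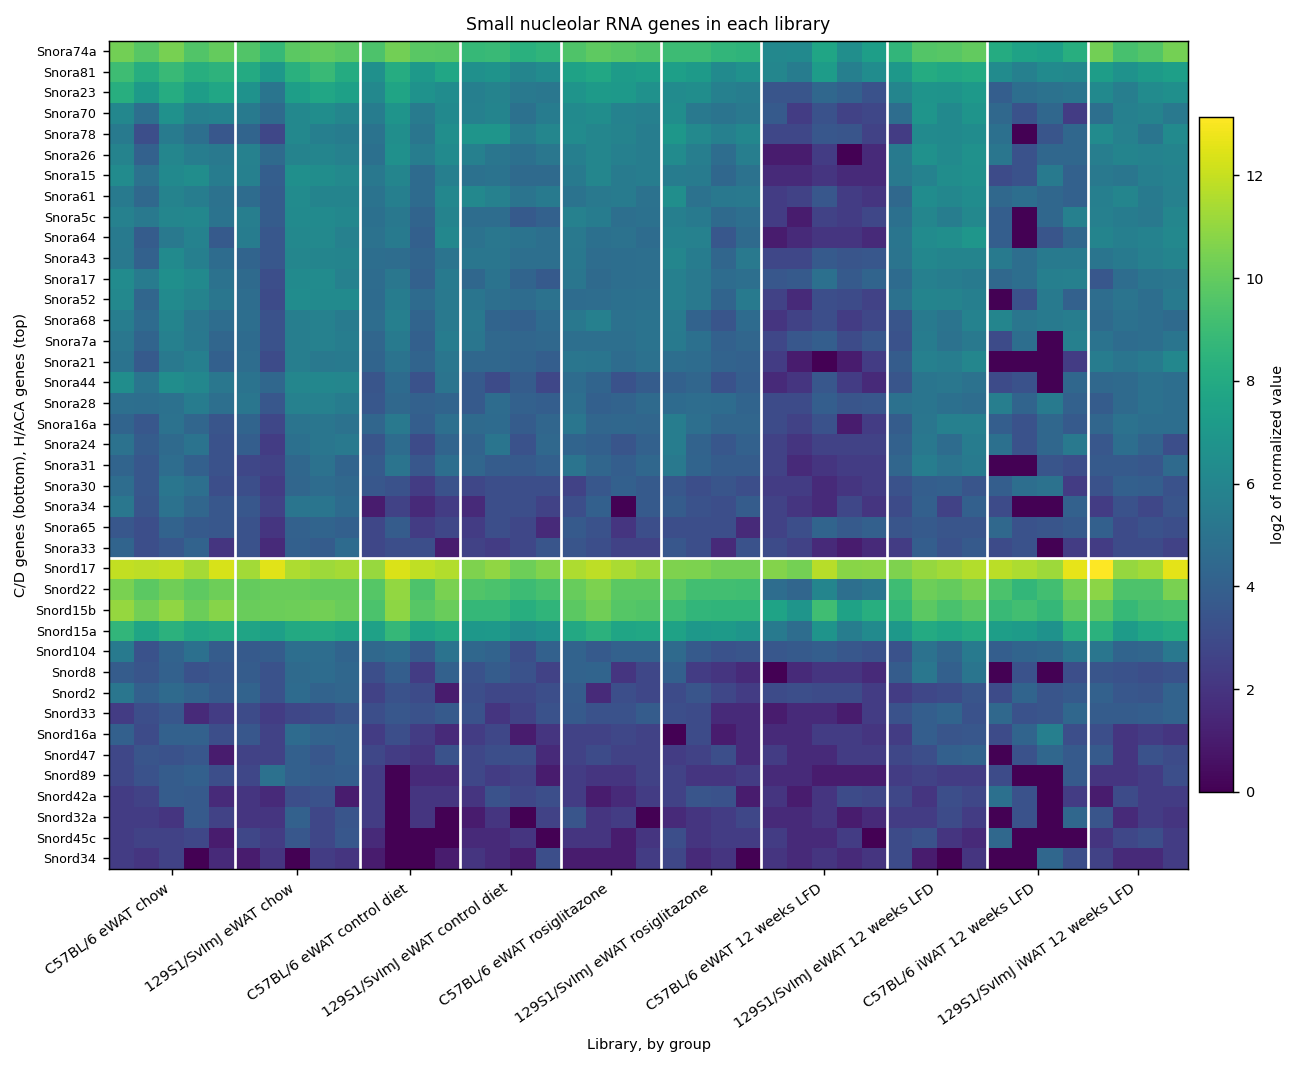
Normalized value of each of the 40 small nucleolar RNA genes (rows, H/ACA above and C/D below, each ordered by mean) in each of the 43 libraries (columns, by group), as colour on a log2 scale. The 5 C57BL/6 eWAT libraries after 12 weeks of diet form a dark block across most rows, while Snord17 stays at 1338 or more there.

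The signal was concentrated in few genes. Snord17, Snord22, Snord15b and Snord15a together made up 96.1 to 99.2% of the summed C/D value in every library. The highest mean values over the 43 libraries belonged to Snord17 (2963), Snord22 (874), Snord15b (810), Snora74a (655), Snord15a (197), Snora81 (183), Snora23 (94.8) and Snora70 (49.4), although the chow, drug experiment and 12-week tables each sit on a scale of their own and the mean pools them. The order differed between groups: in C57BL/6 eWAT after 12 weeks of diet Snord22 had a mean of 34.4, below Snord15b (266) and Snora74a (121). Per 100 nt of annotated length the order was Snord17 (1245), Snord22 (693), Snord15b (559), Snora74a (334), Snord15a (133), Snora81 (103) and Snora23 (51.5). Of the 40 genes, 6 reached 20 in all 43 libraries and 8 did so in every group. At the other end, 8 reached 20 in 1 library only.

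The cut at 20 leans on the coarse libraries. 7 of the 40 genes, 6 C/D and 1 H/ACA, reached 20 only in C57BL/6 iWAT, where the lowest value above the floor was up to 11. Without that group 33 genes would have reached 20, 24 H/ACA and 9 C/D. Just inside the threshold, Snord32a, Snord34 and Snord47 each had a highest value of 21, and just outside it Snord91a and Snord99 had 19 and Snora3 had 18.

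Longer genes had higher levels. Of the 59 symbols shorter than 100 nt, all C/D, 9 (15.3%) reached 20, and the highest mean among them was 19.9. Of the 40 symbols of 120 nt or longer, 36 H/ACA and 4 C/D, 29 (72.5%) did. Those 4 C/D genes are Snord17, Snord15b, Snord15a and Snord22, and with 238, 145, 148 and 126 nt they are the long ones of their class. Spearman's rho between length and mean value was 0.72 over the 40 genes and 0.55 over the 104 symbols with an annotated length, given as a description across genes that share libraries. Length and class largely coincide, and within a class rho was 0.235 over 36 H/ACA symbols and 0.231 over 68 C/D symbols. The 40 genes were themselves chosen by level.

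**Figure D2:**
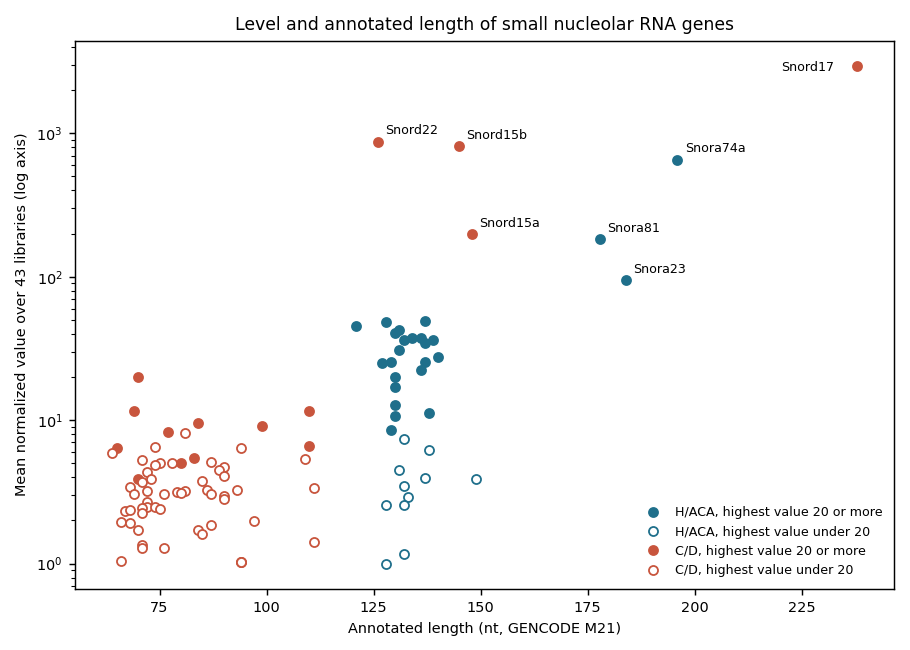
Mean normalized value over 43 libraries (log axis) against annotated length in nt for the 104 matched symbols, with filled points for genes whose highest value was 20 or more. The 59 symbols under 100 nt all have means under 20, and the 7 genes with the highest means are 126 to 238 nt long.

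Of the 11 comparisons made, that between strains in eWAT after 12 weeks of low fat diet called the most small nucleolar RNA genes, all higher in 129S1/SvImJ. Of the 40 genes, 28 were called higher and 0 lower (limma on log2(value + 1), Benjamini-Hochberg adjusted p under 0.05 over all 22869 genes), while 11.6% of all genes were called higher and 10.2% lower. The median log2 fold change, 129S1/SvImJ over C57BL/6, was 1.88 (range -0.17 to 4.89), beside 0.00 over all genes. In 24 of the 40 the libraries of the 2 strains did not overlap, against 11.1% of all genes in that direction. Taking all 105 symbols regardless of level, 38 were called higher and 0 lower, with a median of 0.65. Among the 65 symbols under 20 it was 10 (15.4%), all C/D, among them Snord67 at 1.44 ± 0.20 (SE, adjusted p = 0.00276).

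Snord22, a C/D RNA long known from frog oocytes to be needed for small-subunit ribosomal RNA, had the largest log2 fold change of the 40. Its values were 26, 20, 62, 28 and 36 in the 5 C57BL/6 libraries and 524, 1206, 1044 and 1367 in the 4 of 129S1/SvImJ. Every 129S1/SvImJ library was above every C57BL/6 library, and the means were 1035 ± 365 (SD, n = 4) and 34.4 ± 16.5 (SD, n = 5). The log2 fold change was 4.89 ± 0.40 (SE, adjusted p = 0.000381), which is 29.7-fold on the scale of value + 1.

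The H/ACA genes with the smallest p-values lay close to the floor in C57BL/6. Snora15 had 3, 3, 4, 3 and 3 in C57BL/6 and 40, 56, 87 and 95 in 129S1/SvImJ, a log2 fold change of 3.99 ± 0.26 (adjusted p = 0.000152). Snora26 had 2, 2, 5, 1 and 3 against 41, 98, 78 and 100 (4.49 ± 0.39, adjusted p = 0.000444), and Snora64 had 2, 3, 4, 4 and 3 against 34, 82, 90 and 119 (4.18 ± 0.36, adjusted p = 0.000455). In each of the 3 the strains were far apart, with 129S1/SvImJ replicate 1 the lowest of its group. Snora31 had 6, 3, 4, 5 and 5 against 20, 47, 33 and 41 (2.65 ± 0.27, adjusted p = 0.000834). Snora23, at 11, 11, 21, 16 and 10 against 62, 111, 107 and 137, differed by 2.83 ± 0.30 (adjusted p = 0.000898). At such low values a log2 fold change on value + 1 understates the ratio.

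More abundant genes were called as well. Snora74a, the most abundant H/ACA gene, had 69, 76, 209, 91 and 162 in C57BL/6 and 399, 771, 843 and 1002 in 129S1/SvImJ (2.69 ± 0.43, adjusted p = 0.00463, no overlap). Snora81 had 66, 45, 153, 50 and 84 against 127, 271, 233 and 257 (1.55 ± 0.41, adjusted p = 0.033), and here C57BL/6 replicate 3 lay above the lowest 129S1/SvImJ library. Snora70, lower in C57BL/6 than these, had 13, 5, 10, 6 and 7 against 26, 114, 75 and 111 (3.03 ± 0.49, adjusted p = 0.00484). Snord15a, with 43, 26, 112, 48 and 78 against 126, 259, 208 and 267, was higher by 1.91 ± 0.45 (adjusted p = 0.0222).

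Some of the most abundant RNAs did not pass the test. Snord15b, neighbour of Snord15a in Rps3, had 195, 113, 541, 187 and 295 in C57BL/6 and 409, 889, 646 and 880 in 129S1/SvImJ (1.54 ± 0.47, adjusted p = 0.0573). Snord17 had 1681, 1338, 3335, 1759 and 1854 against 1531, 2118, 2520 and 3098, a log2 fold change of 0.24 ± 0.31 (adjusted p = 0.684), with the groups overlapping throughout. In both genes C57BL/6 replicate 3, the library with high muscle markers, was the highest of its group. Snora78 (2.16 ± 0.83, adjusted p = 0.112), which lies in an intron of Snhg9 opposite Rps2, had 5, 79, 74 and 83 in 129S1/SvImJ and 6 to 12 in C57BL/6. Snora65, Snord34 and Snord2 had log2 fold changes of -0.03, -0.17 and 0.00.

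In Snord22, Snora74a and Snora23, C57BL/6 replicate 3 was the highest and 129S1/SvImJ replicate 1 the lowest of its group, nearest to the other strain. Without both, an alternative added after seeing the data, 32 genes were called higher and 0 lower, with a median of 2.24. Because these libraries were picked as the nearest to the other strain, leaving them out favoured a wider difference, and the rise supports nothing further. Leaving out each library in turn gave 23 to 33 called, and 22 of the 28 were called whichever library was left out. With values under 20 set to 20, 22 were called. In the same comparison all 5 endothelial markers were lower in 129S1/SvImJ (summed values 1631 to 2238 against 4096 to 4590, none at the floor) and all 3 thermogenic markers were higher (214 to 316 against 44 to 89, with 1 of them at the floor in C57BL/6), while 2 of 5 skin and gland epithelium markers were lower (57 to 99 against 132 to 263), and their part in the result was not tested. Of 8 white adipocyte markers 2 were higher and 1 lower, and their part was not tested either. In bulk tissue, fewer cells of a type and less RNA per cell cannot be told apart. Using replicate number as a block, which the labels do not support as a pairing, left 10 called higher. The authors' deposited table, whose p-values may or may not be adjusted, lists 32 of the 40 at p under 0.05, all lower in C57BL/6.

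By class, 20 of 25 H/ACA genes (80%) and 8 of 15 C/D genes (53.3%) were called in this comparison, and the difference between classes was not tested. The median log2 fold change was 2.35 for H/ACA and 0.89 for C/D, and strains did not overlap in 17 and 7 genes. Summed H/ACA values were 280, 252, 587, 294 and 409 in C57BL/6 and 1033, 2298, 2200 and 2615 in 129S1/SvImJ, with no overlap. Summed C/D values without Snord17 ran from 207 to 770 (median 319) in C57BL/6 and from 1143 to 2664 (median 2255) in 129S1/SvImJ. Snord17 alone made up 68.1 to 74.5% of the summed value of the 40 genes in C57BL/6 and 30.6 to 41.3% in 129S1/SvImJ. The H/ACA share of the sum was 12.3 to 15% in C57BL/6 and 27.9 to 33.3% in 129S1/SvImJ. Without Snord17 these shares overlapped, at 43.3 to 54.9% and 47.5 to 52.2%.

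**Figure D3:**
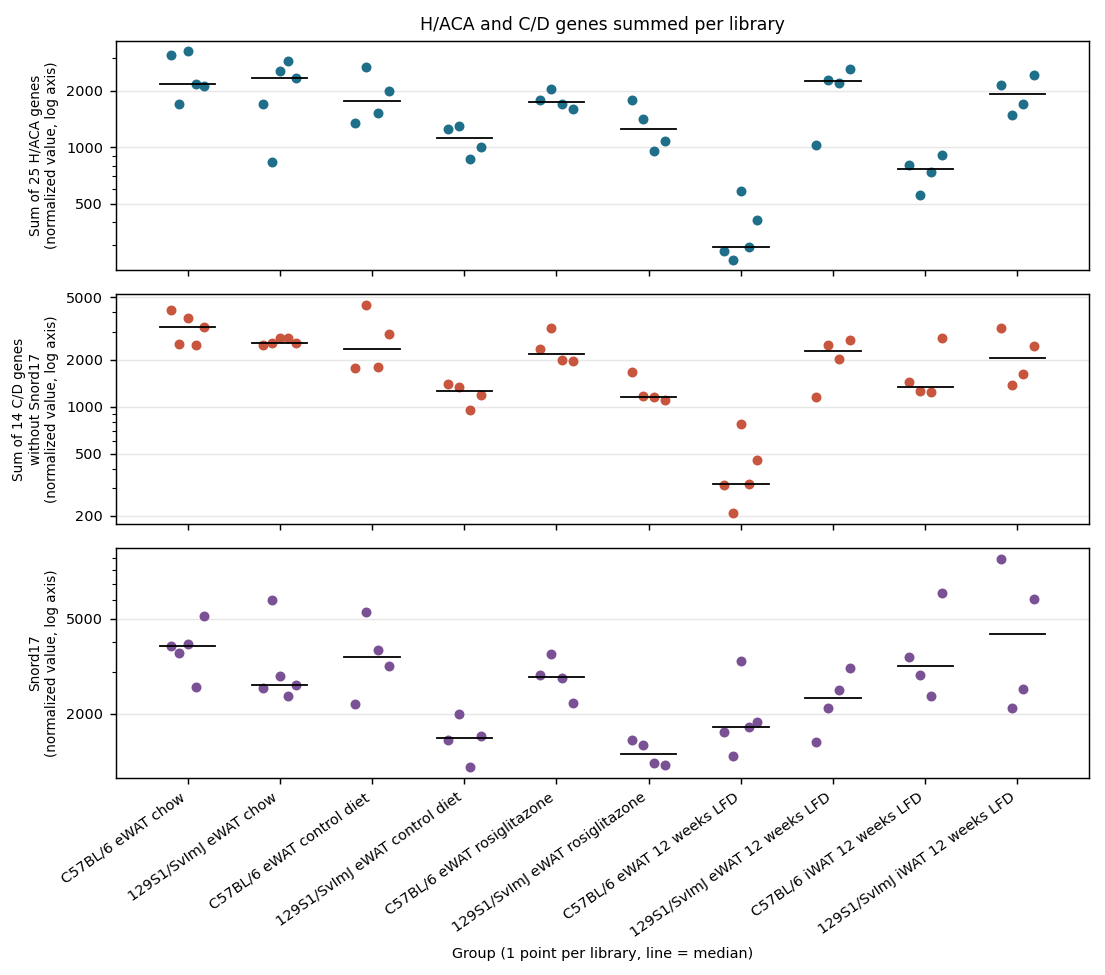
Sum of the 25 H/ACA genes, sum of the 14 C/D genes without Snord17, and Snord17 alone, per library (1 point each, log axes) in the 10 groups, with the group median as a line. C57BL/6 eWAT after 12 weeks of diet has the lowest median for both sums, with H/ACA sums of 252 to 587, but not for Snord17.

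H/ACA genes of middle level were called as well. Snora5c had 5, 2, 6, 5 and 7 in C57BL/6 and 29, 65, 48 and 69 in 129S1/SvImJ, and Snora21 had 5, 2, 1, 2 and 5 against 14, 52, 48 and 66. Snora61, with 5, 6, 12, 5 and 4 against 22, 84, 68 and 83, and Snora43, with 7, 7, 13, 11 and 12 against 33, 68, 61 and 60, were also wholly higher in 129S1/SvImJ. In all of these 129S1/SvImJ replicate 1 was the lowest of its group. Snora17 (12, 13, 29, 13 and 19 against 24, 52, 47 and 41) and Snora44 (3, 4, 12, 5 and 3 against 11, 34, 37 and 31) were called with overlapping strains.

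Among the shorter C/D genes values were small in both strains. Snord8 had 1, 3, 4, 4 and 3 in C57BL/6 and 14, 37, 16 and 34 in 129S1/SvImJ, and Snord89 had 3, 3, 2, 2 and 2 against 5, 6, 5 and 5. Both were called, with no overlap, though every Snord89 value here lies far under 20. Snord104, at 12, 13, 15, 12 and 10 against 10, 31, 20 and 41, overlapped and was not called (0.83).

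The called genes of this comparison have hosts of several kinds. The log2 fold changes of H/ACA genes included Snora5c (3.16, in Tbrg4), Snora21 (3.46, in Rpl23), Snora61 (3.06, in Snhg12) and Snora52 (2.79, in Rplp2). Snord8 (2.66, in the chromatin remodeller gene Chd8), Snord33 (1.86, in Rpl13a), Snord47 (1.31, in Gas5) and Snord89 (0.89) were among those of C/D genes. The 28 called genes lay on 16 chromosomes, 9 of them intronic, 17 overlapping an exon and 2 with no host, and 12 had a near-identical copy. Of the 12 genes not called, 5 were intronic, 6 overlapped an exon and 2 had such a copy. Their median annotated lengths were 130.5 and 128.5 nt.

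**Figure D4:**
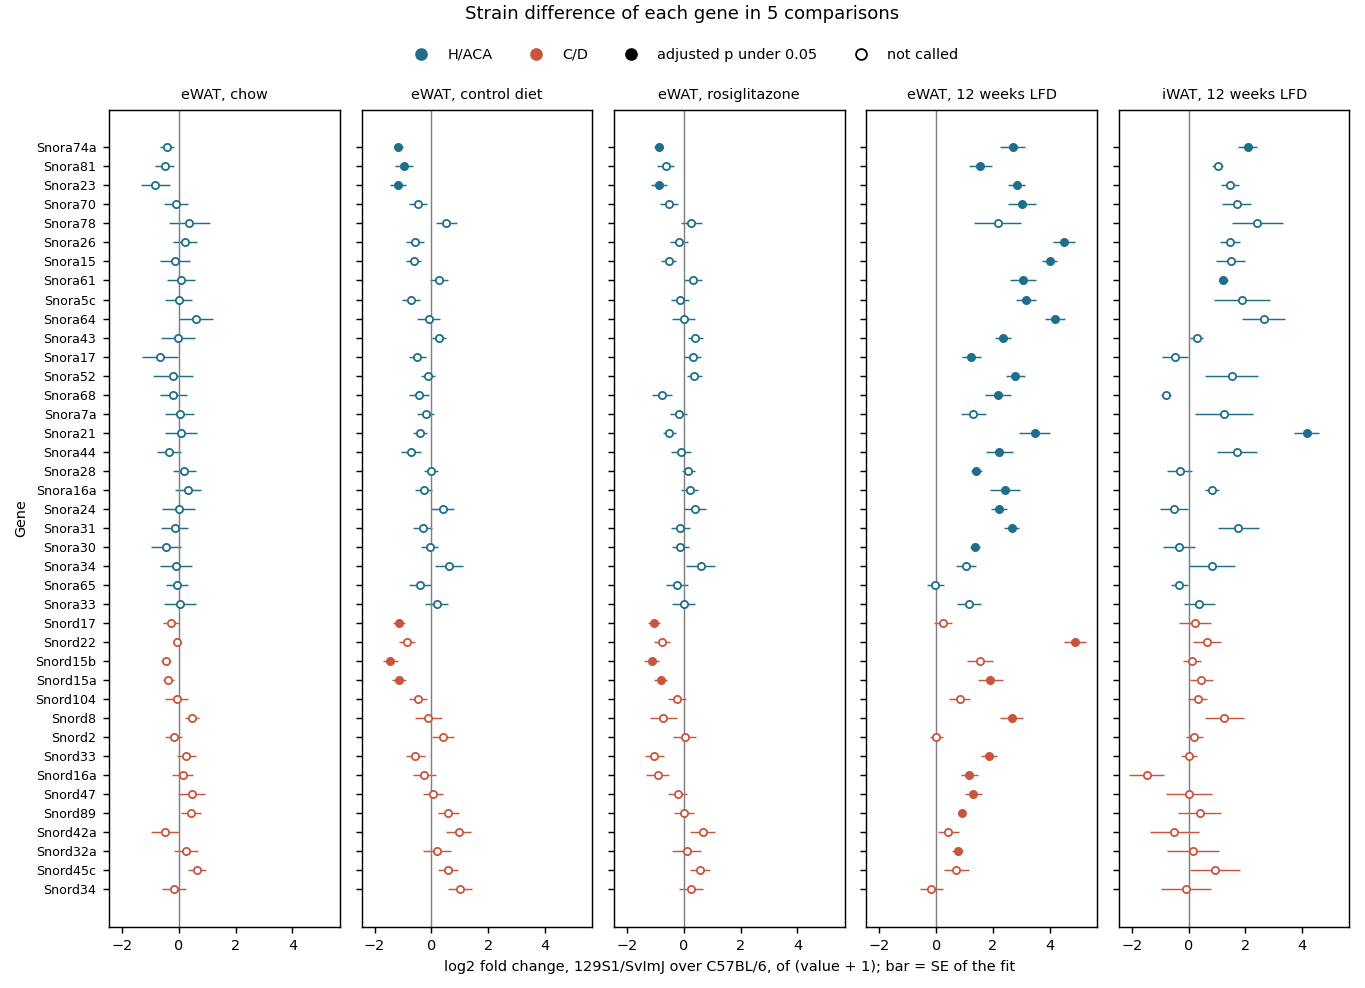
Log2 fold change of value + 1, 129S1/SvImJ over C57BL/6, with its SE, for the 40 genes (rows) in the 5 strain comparisons (panels), with filled points for adjusted p under 0.05. The panel of eWAT after 12 weeks has 28 filled points, all right of 0, and that of the control diet has 6, all left of 0.

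In the drug experiment's control diet groups the genes called went the other way. Of the 40 genes, 0 were called higher and 6 lower in 129S1/SvImJ eWAT, in a comparison in which 10% of all genes were called higher and 7.5% lower, so the share of 15% is close to the background of 17.5% in either direction. The median log2 fold change was -0.26, and 5 genes had no overlap, against 7.66% of all genes in that direction. After centring each library on its median gene the same count of 6 lower was obtained with a median of -0.07, while the called genes of the whole table went from 2290 higher and 1716 lower to 2302 higher and 437 lower. Before centring, all 105 symbols had a median of 0.04, 58 of them with a positive log2 fold change. The 65 symbols under 20 had a median of 0.15.

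The genes called were mostly the abundant ones. Snord17 had 2208, 5343, 3717 and 3187 in C57BL/6 and 1556, 1995, 1196 and 1615 in 129S1/SvImJ (-1.14 ± 0.22, adjusted p = 0.00202). Snord15b had 690, 1911, 834 and 1116 against 432, 434, 301 and 388 (-1.45 ± 0.26, adjusted p = 0.00121), and Snord15a had 180, 427, 195 and 247 against 126, 135, 84 and 105 (-1.15 ± 0.24, adjusted p = 0.00312). In all 3 every 129S1/SvImJ library lay below every C57BL/6 library, and C57BL/6 replicate 2 was highest. Of the H/ACA genes, Snora74a had 712, 1283, 870 and 836 against 439, 476, 326 and 380 (-1.17 ± 0.16, adjusted p = 3.2e-05), and Snora23 had 69, 201, 103 and 83 against 51, 59, 40 and 37 (-1.17 ± 0.27, adjusted p = 0.00477). Snora81, at 96, 280, 135 and 216 against 95, 107, 63 and 81, overlapped (-0.97 ± 0.31, adjusted p = 0.0389). Snord22 had 811, 2055, 715 and 1448 against 746, 674, 506 and 623 and was not called.

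Leaving out each library in turn gave 5 to 9 calls here. When the 8 control libraries were fitted alone, 2 were called, Snora74a (adjusted p = 0.0162) and Snord15b (adjusted p = 0.0339). Summed H/ACA values were 1350 to 2665 in C57BL/6 and 864 to 1296 in 129S1/SvImJ, and C/D sums without Snord17 were 1759 to 4474 and 954 to 1386, neither overlapping. By class, 3 of 25 H/ACA and 3 of 15 C/D genes were called. Among the 65 symbols under 20, 4 C/D symbols were higher (Snord96a 1.52, Snord99 1.08, Snord100 0.95 and Snord64 0.77) and Snord23 was lower (-1.11). All 5 endothelial markers were lower here too (summed 1835 to 2358 against 2995 to 4711). Higher were 2 of 3 thermogenic markers (125 to 221 against 34 to 53) and 3 of 8 white adipocyte markers. The part of these markers was not tested.

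In mice given rosiglitazone for the final 2 weeks, 5 of the 40 genes were lower in 129S1/SvImJ eWAT and 0 higher, against 5.23% lower and 5.45% higher among all genes. Snora74a had 736, 952, 846 and 742 in C57BL/6 and 503, 515, 393 and 372 in 129S1/SvImJ (-0.88 ± 0.16, adjusted p = 0.000809). Snord17 had 2897, 3563, 2821 and 2220 against 1556, 1484, 1240 and 1222 (-1.05 ± 0.22, adjusted p = 0.00553). Snord15b, with 910, 1265, 823 and 756 against 531, 402, 379 and 382, differed by -1.13 ± 0.26 (adjusted p = 0.0104). Strains did not overlap in any of these, nor in Snord15a (239, 346, 211 and 222 against 191, 127, 140 and 116, adjusted p = 0.0387) and Snora23 (109, 143, 133 and 100 against 81, 87, 53 and 48, adjusted p = 0.0431). In all, 7 of the 40 genes were wholly lower, against 6.34% of all genes. The count fell to 3 without C57BL/6 rosiglitazone replicate 1, without its replicate 2, without 129S1/SvImJ rosiglitazone replicate 4, or when the 8 libraries were fitted alone. Centring gave 6 lower, with 353 higher and 743 lower among all genes in place of 1247 and 1196. In these groups 2 of 3 thermogenic markers were higher in 129S1/SvImJ (summed 611 to 1348 against 72 to 112) and 2 of 5 endothelial markers lower (1688 to 2748 against 2285 to 3614). Also called were 1 of 8 white adipocyte markers, higher, and 1 of 7 lymphocyte markers, lower. The part of these markers was not tested.

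No small nucleolar RNA gene passed the adjusted test for rosiglitazone against control diet. In C57BL/6, 0 of the 40 were called by limma (2.43% of all genes), 1 at an unadjusted p under 0.05, with a median log2 fold change of 0.11 and a smallest adjusted p of 0.236. In 129S1/SvImJ, 0 were called (5.51% of all genes), 3 at an unadjusted p under 0.05, with a median of 0.13 and a smallest adjusted p of 0.161. Both comparisons use the control libraries of the strain comparison above. That 129S1/SvImJ median turned to -0.13 after centring, which moved the median of all genes by -0.27 and their calls from 676 higher and 585 lower to 124 and 931. A difference in the response between strains was called for 0 of the 40 by limma (0.21% of all genes called, 0 of the 40 at an unadjusted p under 0.05, smallest adjusted p 0.569), where centring moved all genes' calls from 17 higher and 31 lower to 1 and 55. The authors' deposited table lists 0 of the 40 at p under 0.05 for the drug in C57BL/6 and 4 higher in 129S1/SvImJ.

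On chow, no strain difference passed the test. Of the 40 genes 0 were called by limma, against 4.99% of all genes (2.39% higher, 2.61% lower), 1 had an unadjusted p under 0.05, and the median log2 fold change was -0.07 with a smallest adjusted p of 0.215. Snord22 had 1438, 905, 1237, 942 and 1207 in C57BL/6 and 1048, 1117, 1135, 1057 and 1057 in 129S1/SvImJ. Snora74a had 1276, 828, 1363, 752 and 1032 against 761, 437, 901, 994 and 867, and Snora23 had 305, 142, 279, 157 and 215 against 102, 34, 162, 218 and 177. The groups overlapped in all 3, and 129S1/SvImJ replicate 2, the library high in epididymis markers, had the lowest Snora74a and Snora23. That library had the highest Snord17 of its group instead, 5984 beside 2567, 2875, 2365 and 2650, while C57BL/6 had 3855, 3584, 3920, 2603 and 5118. Its H/ACA sum of 834 compares with 1708, 2567, 2871 and 2342 in the others. Without 129S1/SvImJ replicates 1 and 2, 1 gene was called, Snord8 (0.82, adjusted p = 0.0307), and the median was 0.48. Centring left 0 called and gave 126 higher and 269 lower among all genes in place of 546 and 596.

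In iWAT after 12 weeks of low fat diet, 3 of the 40 genes were higher in 129S1/SvImJ and 0 lower, against 1.13% of all genes higher and 0.56% lower. All 3 were H/ACA. Snora21 had 1, 1, 1 and 5 in C57BL/6 and 45, 34, 42 and 68 in 129S1/SvImJ (4.15 ± 0.44, adjusted p = 0.0123), with 3 of the 4 C57BL/6 libraries at the floor. Snora61 had 22, 27, 21 and 17 against 50, 62, 42 and 54 (1.22 ± 0.17, adjusted p = 0.0311), and Snora74a had 269, 191, 167 and 298 against 1270, 622, 784 and 1331 (2.08 ± 0.33, adjusted p = 0.0399). In each the strains did not overlap. Over the 25 H/ACA genes 11 were wholly higher and 1, Snora68, wholly lower (-0.81, adjusted p = 0.12), against 4.11% and 3.67% of all genes, and the median was 1.24. Over the 15 C/D genes none was without overlap, the median was 0.20, and the smallest adjusted p was 0.397.

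The count of these iWAT calls changed with the libraries used and with the scaling. The count was 0 without C57BL/6 replicate 1, 2 or 3, or without 129S1/SvImJ replicate 1, 3 or 4, and 1 (Snora21) without C57BL/6 replicate 4. After centring, which moved the median of all genes by 0.53 and their calls from 259 higher and 128 lower to 11678 and 159, 15 were higher. Without the 3 libraries high in lymphocyte markers, an alternative added after seeing the data, Snora74a was the 1 gene called (1.77, adjusted p = 0.0117). Those 3 libraries also had the highest Snord17 values of iWAT, 6435 in C57BL/6 beside 3451, 2906 and 2381, and 8939 and 6074 in 129S1/SvImJ beside 2110 and 2551. The strain difference of Snord17 was 0.23 ± 0.57 (adjusted p = 1), and the part of lymphocytes was not tested.

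Between depots, C57BL/6 iWAT was higher than C57BL/6 eWAT. Of the 40 genes 13 were higher in iWAT and 0 lower, 8 of 25 H/ACA and 5 of 15 C/D, against 5.27% of all genes higher and 7.81% lower, with a median of 0.86. In 10 genes the depots did not overlap, against 6.53% of all genes in that direction. Among the 13, Snord33 reached 20 only in C57BL/6 iWAT (at most 19 elsewhere), so its call supports nothing further. The 65 symbols under 20 did not share the direction: 0 were higher and 3 lower (Snora20, Snora75 and Snord42b), with a median of -0.12. However, 7 of the 40 genes reached 20 only in C57BL/6 iWAT. The cut thus favoured genes high in that group, so the median of 0.86 and the contrast with the 65 symbols support nothing further. Snord22 had the smallest p of the 40 in this comparison, 676, 418, 563 and 1347 in iWAT beside the 20 to 62 of eWAT (4.37 ± 0.44, adjusted p = 3.06e-05). Snora68 (62, 36, 41 and 47 against 4 to 9) was higher by 2.73 (adjusted p = 0.000325) and Snora43 (42, 27, 41 and 43 against 7 to 13) by 1.85 (adjusted p = 0.000455). Values under 20 are coarse in C57BL/6 iWAT, and with values under 20 set to 20 the count was 4 (Snord22, Snora68, Snora43 and Snord15a). Fitted on the 9 libraries alone it was 8. Centring gave 12, with 284 higher and 14963 lower among all genes in place of 1206 and 1786. In this comparison 2 of 3 thermogenic markers were higher in iWAT (summed 255 to 4453 against 44 to 89) and 3 of 5 skin and gland epithelium markers lower (5 to 9, with 4 of the 5 at the floor, against 132 to 263). Of 8 white adipocyte markers 1 was lower, and the part of these markers was not tested.

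In 129S1/SvImJ, 0 of the 40 genes were called between depots by limma (1.72% of all genes), with 2 at an unadjusted p under 0.05 and a median of -0.17. Snord22 had 1834, 692, 715 and 1437 in iWAT, overlapping eWAT (0.13 ± 0.46, adjusted p = 1). The test of the difference between the strains' depot effects called 8 genes, all with the smaller iWAT over eWAT change in 129S1/SvImJ, against 3.14% of all genes in either direction and 1.7% in that one. They were Snord22 (-4.24 ± 0.63, adjusted p = 0.00486), Snora26 (-3.05 ± 0.53, adjusted p = 0.011), Snora68 (-2.98 ± 0.52, adjusted p = 0.0114), Snora43 (-2.06 ± 0.37, adjusted p = 0.0122), Snora24, Snord33, Snora15 and Snord16a. For Snord17 this difference was -0.01 (adjusted p = 1). Without 129S1/SvImJ eWAT replicate 3 the count was 5, with values under 20 set to 20 it was 2 (Snord22 and Snora68), and with the replicate block it was 4. Centring gave 9, with 9980 higher and 125 lower among all genes in place of 328 and 389. The same test called 1 of 3 thermogenic markers lower. It called 2 of 5 skin and gland epithelium markers and 1 of 5 endothelial markers higher, and the part of these markers was not tested.

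Both mouse sets on low fat diet gave C57BL/6 eWAT libraries, whose values are set side by side here with no test, because their tables were normalized apart. Snord22 had 715 to 2055 in the 4 control diet libraries and 20 to 62 in the 5 libraries after 12 weeks of diet. Snord17 had 2208 to 5343 and 1338 to 3335, ranges that overlap.

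Most host genes of these small RNAs were not called. For 34 of the 40 genes the tables hold the annotated host, 28 hosts in all. In eWAT after 12 weeks of diet, 5 of the 28 hosts were higher and 2 lower in 129S1/SvImJ, against 11.6% and 10.2% of all genes. Hosts were thus called about as often as genes at large. The host median log2 fold change was 0.20, while the 34 genes had a median of 2.04, and 31 of them had a larger log2 fold change than their host. Snhg1, host of Snord22, differed by 0.36 ± 0.11 (adjusted p = 0.0546). Rps3 (-0.17), Rps2 (-0.24) and Cct6a (-0.07) were not called either, beside Snord15a at 1.91, Snora64 at 4.18 and Snora15 at 3.99. Gas5 was lower by 0.88 (adjusted p = 0.00716) while its Snord47 was higher by 1.31. Gas5 was also called lower in 129S1/SvImJ eWAT on chow (-0.9), control diet (-0.91) and rosiglitazone (-0.93), so its difference is not particular to this comparison. Pearson's r between host and small RNA log2 fold changes was 0.33 across the 34 genes, which share libraries and in part hosts.

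A few hosts were higher themselves. 2700023E23Rik, the table's name for Dancr, had 86.2 ± 28.7 (SD, n = 4) in 129S1/SvImJ and 5.00 ± 1.58 (SD, n = 5) in C57BL/6, a log2 fold change of 3.83 ± 0.31 (adjusted p = 0.000363), near the 4.49 of the Snora26 that overlaps its exon, and their reads cannot be told apart. The translation factor gene Eif5 was higher by 1.00 beside 1.41 for its Snora28. Snx5 was higher by 0.48 ± 0.08 (adjusted p = 0.00717) while its Snord17 was not called. On the control diet the host median was 0.32 and that of the small RNAs -0.26, and 9 of 34 had a larger log2 fold change than their host.

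**Figure D5:**
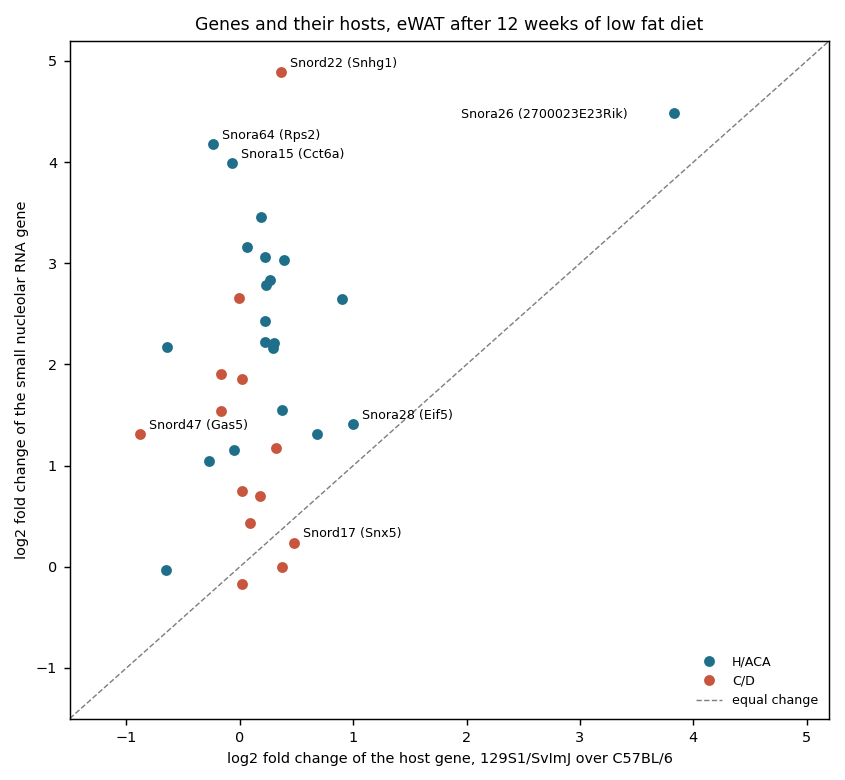
Log2 fold change, 129S1/SvImJ over C57BL/6, of 34 small nucleolar RNA genes against that of their annotated host gene, in eWAT after 12 weeks of low fat diet, with a dashed line of equal change. 31 of the 34 points lie above the line and hosts span -0.88 to 3.83, the highest being 2700023E23Rik, host of Snora26.

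Each class is bound by its own core proteins. Of 8 core protein genes, 4 for C/D (Fbl for fibrillarin, Nop56, Nop58 and Nhp2l1) and 4 for H/ACA (Dkc1 for dyskerin, Nhp2, Nop10 and Gar1), 0 were called in eWAT after 12 weeks of diet by limma, though Nop58 (0.42, adjusted p = 0.0625), Dkc1 (0.39, adjusted p = 0.108) and Nhp2 (-0.39, adjusted p = 0.137) had an unadjusted p under 0.05. On the control diet, where the small RNAs called were lower, Nhp2 (0.87), Nhp2l1 (0.80) and Nop10 (0.52) were higher in 129S1/SvImJ. Of 13 assembly factor genes, 3 were higher after 12 weeks (Naf1 1.27, Znhit6 0.69 and Shq1 0.42, which serve H/ACA or C/D particle assembly) and Rpap3, of the chaperone complex R2TP, was lower (-0.60). Of 23 ribosome production genes 3 were higher, among them Npm1 (0.59), and 2 lower, Rrp9 (-0.85) and Bop1 (-0.46). Of 14 noncoding host genes on the list, Snhg3 (1.17) and Rian (0.60) were higher, and Gas5 and Snhg11 (-0.84) lower. Snhg11 was also called lower in 129S1/SvImJ eWAT on chow (-2.31), control diet (-0.94) and rosiglitazone (-1.49). Snhg3 was also called higher on the control diet (0.99). Beside these counts, 11.6% of all genes were called higher and 10.2% lower after 12 weeks. On the control diet the shares of all genes were 10% and 7.5%.

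Other small noncoding RNAs were not uniform. Of 11 with a highest value of 20 or more, 5 were higher and 2 lower in 129S1/SvImJ eWAT after 12 weeks of diet. The shares of all genes there were 11.6% higher and 10.2% lower. The small Cajal body RNAs Scarna10 (2.18), Scarna6 (1.44) and Scarna3a (2.36), which guide modification of spliceosomal RNAs, and the minor spliceosome RNA gene Rnu11 (1.40) were higher, while Scarna2 was lower (-1.40). Rpph1, the RNA of ribonuclease P, was lower (3024 ± 1871 against 16682 ± 6089, -2.85, adjusted p = 0.0301), and Rprl3, a gene named for its likeness to it, was higher (392 ± 217 against 2.00 ± 0.707, 6.76, adjusted p = 0.000422). Rprl3 was also called higher in 129S1/SvImJ on chow (7.47), control diet (7.0) and rosiglitazone (6.58), and in iWAT (8.06). Its difference is thus not particular to this comparison. Rmrp (-0.97, adjusted p = 0.226), Scarna13 (0.26) and Vaultrc5 (-0.36) were not called. On the control diet 1 of the 11 was higher (Rprl3) and 5 lower, Rmrp (-0.64), Rpph1 (-0.82) and Scarna6 (-0.83) among them. Of all genes, 10% were higher and 7.5% lower on that diet. Of 44 microRNA genes reaching 20, 9 were higher and 8 lower after 12 weeks, and of 39 histone genes reaching 20, 3 and 8.

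The genes whose pattern was most like the mean log2 level of the 40 were sought over the 17 libraries of the 12-week eWAT and iWAT tables, among 14243 genes with a mean of at least 5. They were 2700023E23Rik (Pearson's r 0.96), Scarna10 (0.96), AA465934 (0.95), Dazap2 (0.95), Ppt1 (0.94), Scarna6 (0.93), AI450353 (0.93) and Btf3 (0.92). Of these 8, 2 are small guide RNAs themselves. By their RefSeq spans, 3 overlap a GENCODE small nucleolar RNA gene, strand not considered (Snora26 for 2700023E23Rik, Snord7 for AA465934 and AI450353). The other 3 encode proteins. Dazap2 was at 316 ± 12.8 (SD, n = 5) in C57BL/6 eWAT, 600 ± 78 in 129S1/SvImJ eWAT, 525 ± 54.8 in C57BL/6 iWAT and 606 ± 75.8 in 129S1/SvImJ iWAT (SD, n = 4 each). Within the 40, the genes nearest to the mean of the others were Snora26 (0.96), Snora74a, Snora15, Snora23, Snora43 and Snora61 (0.94 each), and Snord22 led the C/D genes (0.92).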

How the data were processed

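RNA of fat depots was sequenced from TruSeq libraries. The tool HOMER and the mouse build mm9 are those listed per the submitters' processing notes. How reads were counted and how values were normalized is not stated in the sources used here. The 5 deposited tables give a score per transcript and library, a whole number with a floor of 1 that the authors had already normalized, so no counting interval was computed and depth is unknown. Drug tables share a scale, as do the 12-week eWAT and iWAT tables, and the chow table has its own. The authors also deposited a log2 fold change and a p-value per transcript. The 8 control libraries stand in both drug tables with identical values.

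Where several of the 28644 transcript rows shared a symbol, that of highest total was kept. log2(value + 1) was fitted with limma 3.58.1 in R 4.3.3 (eBayes with trend and robust, 1 mean per group, two-sided) over all 22869 symbols: strain comparisons on chow, and in eWAT and in iWAT after 12 weeks of diet, each on their own libraries, the 16 drug experiment libraries in 1 fit, and the depot comparisons in 1 fit of 17. Benjamini-Hochberg adjusted p under 0.05 was called. The scripts were tested on simulated data. The fits and tables were made with Python 3.11.15, pandas 2.3.3 and numpy 2.4.6 besides. The value in every library was given for the 8 genes of highest mean and, per strain comparison, up to 6 called genes of smallest p, and other genes were named by range, or as single examples chosen after their values were seen. Most-alike genes were the 8 with the highest Pearson's r.

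Alternatives were a pseudocount of 5, a filter on a mean of at least 5, a replicate block, no trend, median centring, leaving out libraries, the compared groups alone, and a level of 50 in place of 20. Setting values under 20 to 20, other choices of genes, and leaving out libraries high in lymphocyte markers or nearest to the other strain were added after seeing the data. The genes, gene lists and comparisons were chosen with earlier results of these data known. Coordinates and sequences are from GENCODE M21 on GRCm38, matched by accession for 101 and by symbol for 3 of the 105 symbols. Because the files were made on mm9, they were used for names, neighbours and sequences only.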

Additional observations from a re-analysis of the deposited data

Results flagged for a closer look

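Single libraries lay far from the others of their group in 12 of 160 groups tested (14 genes and 2 class sums), where chance gives about 1 in 20 for independent tests. These tests share libraries, so the count cannot be read against that rate. In 129S1/SvImJ eWAT with rosiglitazone, replicate 1 was high for Snord22 (850, the others 553 to 562), Snord15b (531, the others 379 to 402), Snora70 (88, the others 33 to 40) and Snora61 (91, the others 31 to 40). In 129S1/SvImJ chow, replicate 2, the library high in epididymis markers, was high for Snord17 (5984, the others 2365 to 2875) and for the summed C/D value (8524, the others 5049 to 5640), and low for Snora26 (23, the others 54 to 63). In C57BL/6 eWAT after 12 weeks of diet, replicate 3, high in muscle markers, was high for Snord17 (3335, the others 1338 to 1854), Snora61 (12, the others 4 to 6) and Snora15 (4, the others 3). In iWAT, Snora31 was 23 in 129S1/SvImJ replicate 4 (the others 12 to 13) and Snora21 was 5 in C57BL/6 replicate 4 (the others 1). In the latter library 5 is the lowest value above the floor, and the Snora15 value of 4 beside 3 is also a small step near the floor.

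The change from eWAT to iWAT differed between strains, by a test of the difference itself, in 8 genes. Among them, Snord33 reached 20 only in C57BL/6 iWAT, so its call supports nothing further. The differences of log2 fold change, 129S1/SvImJ minus C57BL/6, were -4.24 for Snord22, -3.05 for Snora26, -2.98 for Snora68, -2.73 for Snora24, -2.65 for Snord16a, -2.52 for Snora15, -2.06 for Snora43 and -1.85 for Snord33, with limma adjusted p between 0.00486 and 0.0476.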

How the results depend on the processing

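No result reversed its direction of call under any alternative run. Leaving out 1 library at a time gave 0 to 0 called genes on chow, 5 to 9 on the control diet, 3 to 6 between strains with rosiglitazone, 23 to 33 in eWAT after 12 weeks, 0 to 2 in iWAT, 11 to 15 between depots in C57BL/6, 5 to 10 for the strain by depot difference, and 0 to 0 for the drug effects, their difference and depots in 129S1/SvImJ. On chow, 1 was called without 129S1/SvImJ replicates 1 and 2. With the compared groups fitted alone, 2 were called on the control diet, 3 between strains with rosiglitazone and 8 between depots in C57BL/6. Without trend and robust settings the rosiglitazone strain count was 3. With values under 20 set to 20 it was 3 there, 4 between depots in C57BL/6 and 2 for the strain by depot difference. Median centring gave 15 in iWAT. Without the 3 lymphocyte-rich libraries 1 was called in iWAT. Over all 105 symbols, 11 were called on the control diet (4 higher, 7 lower), 7 in iWAT and 1 between depots in 129S1/SvImJ. Between depots in C57BL/6, 13 of the 105 were higher in iWAT and 3 lower. The cause of these moves was not tested.

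Replicate numbers did not pair the samples: in none of 9 sets did same-numbered libraries all correlate above 0.1 (r from -0.396 to 0.428). With the replicate block, 10 genes were called in eWAT after 12 weeks, 0 in iWAT and 4 for the strain by depot difference. Of 63 results for single named genes, the block kept the call in 36, a pseudocount of 5 in 59, and values under 20 set to 20 in 36.

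Centring moved the median log2 fold change of all genes by 0.53 in iWAT, -0.53 between depots in C57BL/6, 0.56 for the strain by depot difference, 0.19 on the control diet, -0.12 between strains with rosiglitazone, -0.27 for the drug in 129S1/SvImJ and -0.32 for its difference between strains. Unknown depth and the coarse C57BL/6 iWAT values limit what can be said of genes under 20.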
